A study of Mus musculus with 12 samples.

Results

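A set of 10 genes of mouse oesophageal epithelium that encode secreted antimicrobial or chitinase-like proteins was followed across 4 genotype groups. They are Lcn2, Chi3l1, Defb1, Defb3, Defb4, Defb14, Slpi, Ltf, Lyz1 and Lyz2, and they make up 10 of the 23337 genes counted. They were chosen by gene name for what their products are, with earlier results of these data known. All 10 passed the filter on low counts, which 14134 genes passed. Defb3 did so only through the 3 libraries of the group where it was highest, Ikkβca. RNA-seq had been made from epithelium of C57BL/6 mice at 6 weeks of age, mechanically separated from the stroma, in 12 libraries, 3 per group. The question the groups address is what active IKKβ, the kinase that turns on NF-κB, and loss of the transcription factor Stat3 each do to gene expression in this epithelium, alone and together.

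The combined group, Ikkβca+Stat3KO, carried ED/L2-Cre with the ROSA26-StopFL-Ikk2ca+/L and Stat3L/L alleles. The Ikkβca group carried the Cre with ROSA26-StopFL-Ikk2ca+/L, and the Stat3KO group carried it with Stat3L/L. Control mice carried both ROSA26-StopFL-Ikk2ca+/L and Stat3L/L but no Cre, so that by design the active kinase is not expressed and Stat3 is intact. The ED/L2 promoter, of Epstein-Barr virus, drives Cre in squamous epithelium of the oesophagus, and stromal or immune cells are not its target. Cre itself differs between Control and every other group, and its effect cannot be told apart from that of the alleles in those comparisons. As the genotypes are stated, Control also carries Stat3L/L, which the Ikkβca group does not, and the ROSA26 allele, which the Stat3KO group does not. Any effect of carrying these alleles without Cre cannot be told apart either. In the combined group over Control, both alleles are in both arms and Cre differs. Cre is present in both arms when the combined group is set against Stat3KO or against Ikkβca. Whether each library came from its own animal is not stated in the labels, and p-values therefore measure the spread between these libraries, which may be technical. In bulk RNA, fewer cells of a type and less RNA per cell cannot be told apart.

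These proteins form the soluble defence of epithelia. Lcn2, lipocalin 2, withholds iron by binding bacterial siderophores, and Ltf, lactoferrin, binds iron directly. The beta-defensins Defb1, Defb3, Defb4 and Defb14 are small cationic peptides that damage microbial membranes. Lyz1 and Lyz2 are lysozymes that cleave peptidoglycan, and in mice Lyz1 is best known from Paneth cells of the gut and Lyz2 from macrophages and neutrophils. Slpi inhibits serine proteases such as neutrophil elastase. Chi3l1 belongs to the chitinase family, and it binds chitin but has lost the enzymatic activity. Lcn2 and several beta-defensins are classical NF-κB and IL-17 responsive genes in barrier epithelia.

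Promoter sequence is shown for the 3 genes that rose with active IKKβ, and for Slpi, the most abundant of the 10, which did not pass. RefSeq (GRCm38.p6) gave a window for 7 of the 10 genes. The windows hold the 250 bases before the RefSeq start, 5′ to 3′ on the gene's strand, and a match to a searched motif is in capitals. Chi3l1 lies at chr1:134181906-134182155 on the plus strand, Lcn2 at chr2:32387740-32387989 on the minus strand, Defb3 at chr8:19293111-19293360 on the plus strand and Slpi at chr2:164356508-164356757 on the minus strand.
Chi3l1: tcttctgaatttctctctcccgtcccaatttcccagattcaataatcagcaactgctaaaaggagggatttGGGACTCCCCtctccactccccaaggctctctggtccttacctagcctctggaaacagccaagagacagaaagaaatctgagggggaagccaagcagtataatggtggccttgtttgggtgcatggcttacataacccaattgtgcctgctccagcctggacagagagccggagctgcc
Lcn2: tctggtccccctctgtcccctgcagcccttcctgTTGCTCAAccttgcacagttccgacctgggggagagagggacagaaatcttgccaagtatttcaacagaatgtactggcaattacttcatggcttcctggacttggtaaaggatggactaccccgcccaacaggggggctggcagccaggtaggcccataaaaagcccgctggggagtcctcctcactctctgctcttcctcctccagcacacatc
Defb3: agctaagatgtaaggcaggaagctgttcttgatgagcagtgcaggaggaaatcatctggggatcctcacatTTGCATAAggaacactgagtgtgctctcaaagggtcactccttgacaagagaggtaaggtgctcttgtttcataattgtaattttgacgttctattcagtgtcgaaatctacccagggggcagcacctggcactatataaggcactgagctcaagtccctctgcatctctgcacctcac
Slpi: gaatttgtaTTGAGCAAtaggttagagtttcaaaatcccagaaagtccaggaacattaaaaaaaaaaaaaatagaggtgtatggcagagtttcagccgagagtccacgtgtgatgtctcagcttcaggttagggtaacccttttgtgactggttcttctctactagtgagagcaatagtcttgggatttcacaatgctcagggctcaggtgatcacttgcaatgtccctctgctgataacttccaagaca
The Lcn2 and Slpi windows lie inside longer GENCODE models of these genes. The motifs searched on both strands were GGGA followed by any 4 bases and CC, a form of the NF-κB site, TTCNNNGAA, a form of the STAT site, and TTGCNNAA, a form of the C/EBP site. The Chi3l1 capitals, GGGACTCCCC at -179 to -170, match the first, which 17.6% of 32851 windows of this length hold. The third, which 9.56% of windows hold, is matched by TTGCTCAA at -216 to -209 in Lcn2 and by TTGCATAA at -179 to -172 in Defb3. Slpi holds it on the other strand, at -241 to -234. It was also found in the windows of Ltf, at -75 to -68, and Lyz1, at -209 to -202, which are not printed. The STAT form, held by 7.02% of windows, was in none of the 7, and the Lyz2 window held none of the 3 motifs. A match describes the letters of a window and does not show that a factor binds there.

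Library totals ran between 14816468 counts, in Ikkβca+Stat3KO replicate 2, and 30188363 counts, in Control replicate 3. Levels are given as CPM, counts scaled to a common library size after TMM. No 2 libraries agreed within sampling noise: even the closest pair, Ikkβca replicates 2 and 3, had a chi-square per degree of freedom of 26.1. By their sex-linked transcripts, each group held 1 female library, its replicate 1, and 2 male ones. Squamous keratins dominated every library, and the squamous list of 11 genes summed to 62046 CPM or more in each. Markers of other tissues varied between libraries. A list of 8 skeletal muscle genes summed to between 22.1 CPM, in Control replicate 3, and 1652 CPM, in Stat3KO replicate 3. A list of 8 fibroblast genes summed to between 540 CPM, in Ikkβca+Stat3KO replicate 3, and 2331 CPM, in Control replicate 2. The floxed gene Stat3 had 139 to 154 CPM in Stat3KO libraries and 157 to 179 CPM in Control libraries, a log2 fold change of -0.22 ± 0.15 (SE) that did not pass, and gene counts do not show whether the floxed exons were transcribed. Ikbkb, the gene of IKKβ, was higher in the 6 libraries with the active allele and Cre than in the other 6, by 0.43 ± 0.10 averaged over both Stat3 backgrounds (edgeR adjusted p = 0.0373), a call lost on leaving out any 1 library other than Control replicate 1 or Ikkβca+Stat3KO replicate 2 (adjusted p between 0.0656 and 0.111 in these).

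Some libraries carried transcripts listed as gastric or glandular, and these libraries were also the highest for Ltf. A list of 19 gastric markers summed to 1911 CPM in Ikkβca replicate 1, 320 in Stat3KO replicate 3, 142 in Control replicate 2 and 70.6 in Ikkβca replicate 2. The other 8 libraries held 2.86 to 23.0 CPM, and the 3 of the combined group 4.08 to 8.96. Tff2, a trefoil peptide, led the list with 1657 CPM in Ikkβca replicate 1. Psca, a surface antigen, led it in the other three, with 181 CPM in Stat3KO replicate 3, where Tff2 had 110 CPM, 127 in Control replicate 2 and 63.7 in Ikkβca replicate 2. Tff2 was not high in the last 2 of these, with 1.10 CPM in Control replicate 2 and 0.919 in Ikkβca replicate 2, while Stat3KO replicate 1, not among the 4, had 18.2. Among the markers that define stomach, Tff1 had 48.7 CPM in Ikkβca replicate 1, 2.78 in Stat3KO replicate 3 and at most 0.496 elsewhere, and Muc5ac had 2.27 CPM in Ikkβca replicate 1 and at most 1 count elsewhere. Gkn2 and Vsig1 had no count anywhere, and Gif, Pgc, Gkn1, Cldn18, Atp4b and Muc6 stayed at or below 0.189 CPM. Atp4a reached 0.651 CPM, in Ikkβca+Stat3KO replicate 1, and Gkn3 0.929 CPM, in Ikkβca+Stat3KO replicate 2. The listed keratin Krt8 had 28.3 CPM in Ikkβca replicate 1, 21.5 in Stat3KO replicate 3, 9.62 in Control replicate 2 and 3.05 in Ikkβca replicate 2. It had at most 0.871 elsewhere. Krt18 had 32.0, 4.42, 2.25 and 1.89 CPM in the same 4 libraries and at most 1.34 elsewhere. A list of 12 salivary and serous gland genes stood out in the same libraries, with 385 CPM in Ikkβca replicate 1, 132 in Stat3KO replicate 3, 103 in Control replicate 2 and 51.0 in Ikkβca replicate 2, against 2.29 to 12.6 CPM elsewhere. Its water channel Aqp5 had 139, 121, 101 and 40.5 CPM in those 4 libraries and at most 0.835 elsewhere, while Prol1 and Cst10 had no count. These are called here the libraries with Psca and Aqp5 transcripts, and results are given with and without them.

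In epithelium with intact Stat3, 3 of the 10 genes rose with active IKKβ: Lcn2, Chi3l1 and Defb3. Against Control, edgeR's quasi-likelihood test called 3 of 10 higher and none lower at an adjusted p below 0.05, where of the 14134 genes tested 0.899% were called higher, 0.0566% lower and 0.955% in either direction. The 10 genes were chosen with earlier results known, and Defb3 passed the filter only through the Ikkβca group. These shares are therefore set side by side as a description. The median log2 fold change of the 10 genes was 2.41, and that of all genes tested was 0.0048. All 10 fold changes were above 0, but those of Ltf, Lyz1 and Lyz2 moved with 1 library, and without Ikkβca replicate 1 the median was 0.77 and 9 of 10 were above 0. Without all 4 libraries with Psca and Aqp5 transcripts, which leaves 1 Ikkβca library, none of the 10 was called, and the log2 fold changes were then 7.25 for Lcn2 (edgeR adjusted p = 0.0736), 6.67 for Chi3l1 (edgeR adjusted p = 0.0932) and 3.76 for Defb3 (edgeR adjusted p = 0.410).

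**Figure D1:**
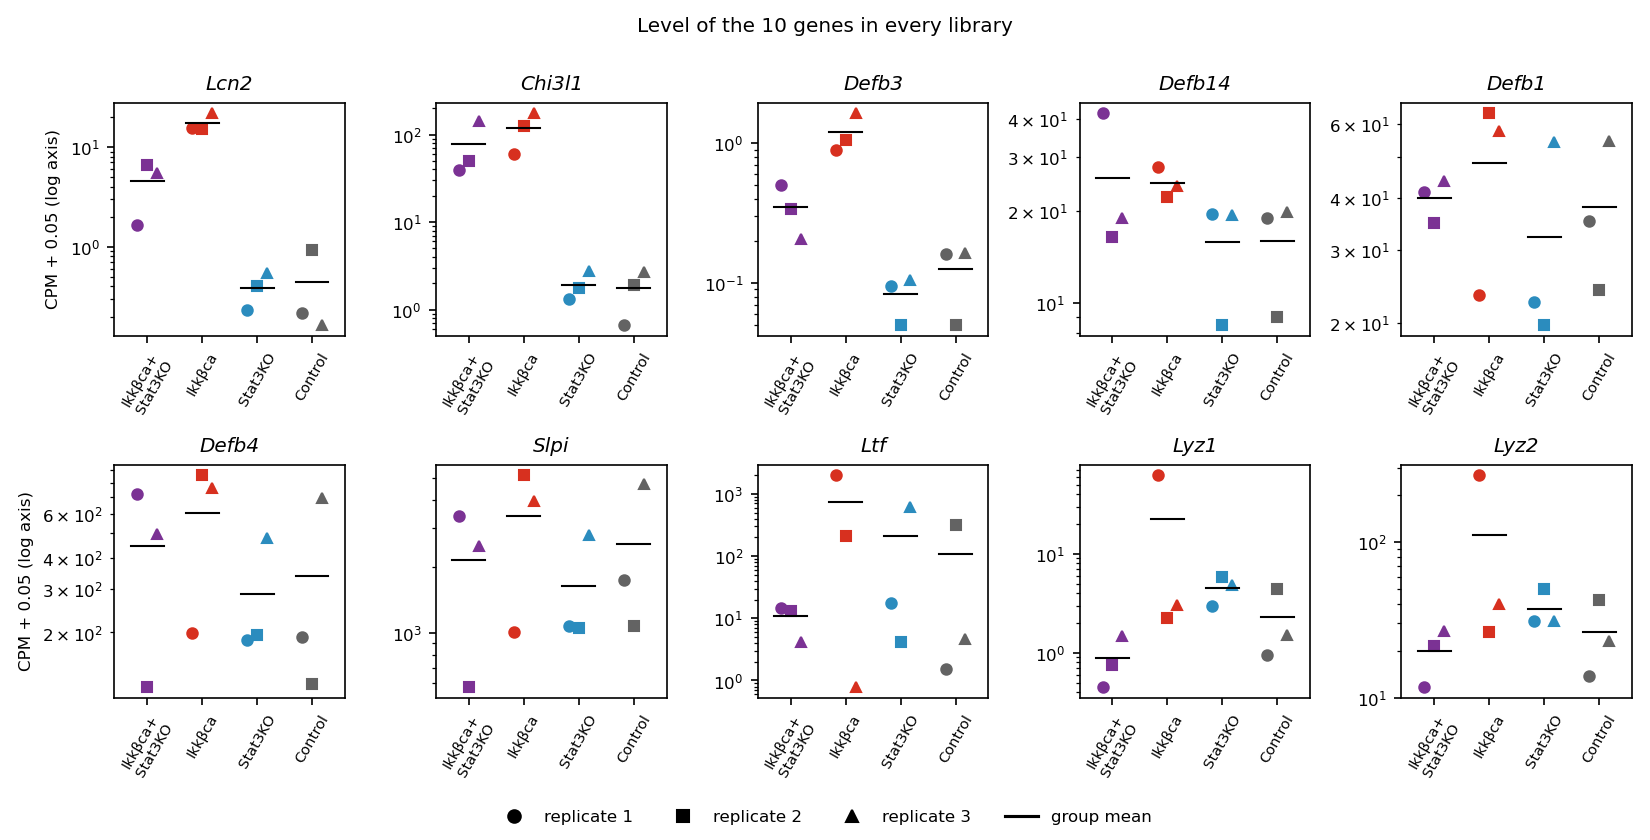
Level of each of the 10 genes in every library, as CPM plus 0.05 on a log axis, for the Ikkβca+Stat3KO, Ikkβca, Stat3KO and Control groups from left to right. Symbols mark the replicate number and the black line is the mean of the 3 libraries. Lcn2, Chi3l1 and Defb3 separate the 2 groups on the left from the 2 on the right, Slpi and Defb4 spread within every group, and Ltf, Lyz1 and Lyz2 peak in Ikkβca replicate 1.

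Lcn2 (chromosome 2, 32384633 to 32388252, minus strand, mm10) is the lipocalin whose promoter is printed above. It had 1.60, 6.62 and 5.39 CPM in Ikkβca+Stat3KO libraries, 15.4, 15.2 and 21.7 CPM in Ikkβca libraries, 0.180, 0.351 and 0.491 CPM in Stat3KO libraries, and 0.168, 0.889 and 0.114 CPM in Control libraries. The groups stood in steps: every Ikkβca library was above every combined one, every combined library was above every library without the active kinase, and Stat3KO and Control overlapped. The rise with active IKKβ over Control was 45.3-fold, a log2 fold change of 5.50 ± 0.75 (edgeR adjusted p = 0.00642). In the combined group against Control it was 11.8-fold, 3.56 ± 0.72 (edgeR adjusted p = 0.0472). Set against Stat3KO, where Cre is in both arms, the combined group gave 3.73 ± 0.72 and did not pass (edgeR adjusted p = 0.0595). It was called in 4 of 18 alternatives, with DESeq2, with the replicate number as a block, without combined replicate 1, or with the log2 Krt4 plus Krt13 keratin level as a covariate, which was chosen after seeing the data, and the adjusted p over all 18 ran between 9.74e-06 and 0.271. The call against Control in the combined group held in 10 of 18 alternatives, with adjusted p between 1.65e-05 and 0.266, and it was lost without Control replicate 1 or 3 or combined replicate 2 or 3. Control replicate 2 was the highest of its group, and without it the log2 fold change was 6.93 in Ikkβca and 4.98 in the combined group over Control.

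Chi3l1 (chromosome 1, 134182176 to 134190181, plus strand, mm10, named Chil1 in the annotation) rose most of the 10 genes. It had 39.5, 49.7 and 143 CPM in Ikkβca+Stat3KO libraries, 59.4, 126 and 174 CPM in Ikkβca libraries, 1.26, 1.71 and 2.67 CPM in Stat3KO libraries, and 0.615, 1.88 and 2.67 CPM in Control libraries. No library with the active kinase came near one without it, and within each of these pairs of groups the libraries overlapped. The log2 fold change was 6.08 ± 0.70 in Ikkβca over Control (edgeR adjusted p = 0.00263), a 67.7-fold rise. It was 5.45 ± 0.69 in the combined group over Control (edgeR adjusted p = 0.00488) and 5.37 ± 0.68 in the combined group over Stat3KO (edgeR adjusted p = 0.00560). Combined replicate 3 was the highest of its group, and without it the log2 fold change was 4.65 over Control and 4.58 over Stat3KO. The call over Stat3KO was lost without Stat3KO replicate 1 (adjusted p = 0.0515) or replicate 2 (adjusted p = 0.0599), in a range over all alternatives of 3.28e-17 to 0.145.

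Defb3 (chromosome 8, 19293360 to 19295291, plus strand, mm10), the mouse beta-defensin usually compared with human beta-defensin 2, was rare in every library. Its raw counts were 9, 5 and 3 in Ikkβca+Stat3KO, 18, 21 and 37 in Ikkβca, 1, 0 and 1 in Stat3KO, and 2, 0 and 3 in Control. In CPM that was 0.157 to 0.451 in the combined group, 0.851 to 1.59 in Ikkβca, 0 to 0.0545 in Stat3KO and 0 to 0.114 in Control, with a count of 0 allowing up to 0.132 CPM in Stat3KO replicate 2 and 0.157 CPM in Control replicate 2. The 4 groups took the same steps as for Lcn2, though combined replicate 3 and Control replicate 3 both had 3 counts. Defb3 passed the filter on low counts only through the Ikkβca libraries, where it is high, so its calls are given as a description. The log2 fold change of Ikkβca over Control was 3.79 ± 0.77 (edgeR adjusted p = 0.0405), and this call is fragile: it held in 5 of 17 alternatives, with adjusted p between 0.00186 and 0.410, and in none of the 6 that left out 1 library (adjusted p between 0.0603 and 0.167). The combined group over Control gave 1.87 ± 0.84, which did not pass (edgeR adjusted p = 0.395). Over Stat3KO, with 17 counts against 2, the ratio of scaled counts was 9.55 (95% counting interval 2.27 to 85.2), and the test did not pass (edgeR adjusted p = 0.284).

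Averaging over both Stat3 backgrounds, which doubles the libraries behind each estimate, gave the same 3 genes. Cre differs in the Ikkβca over Control part of this average and not in the other part. Its effect cannot be told apart from that of the alleles in the average. Here 3 of 10 were called higher and none lower, where 2.12% of all genes were called higher, 0.594% lower and 2.72% in either direction. The mean effect of active IKKβ on the log2 scale was 4.62 ± 0.52 for Lcn2 (edgeR adjusted p = 6.9e-04), 5.73 ± 0.49 for Chi3l1 (edgeR adjusted p = 1.24e-04) and 3.40 ± 0.62 for Defb3 (edgeR adjusted p = 0.0122). For each of them all 6 libraries with the active kinase lay above all 6 without it, which 1.52% of genes did. For Defb3 this rests on few counts. Combined replicate 3 and Control replicate 3 both had 3 counts, 0.157 and 0.114 CPM, and the count of 0 in Control replicate 2 allows up to 0.157 CPM. Defb3 also passed the filter only through the Ikkβca libraries. The exact two-sided permutation test within backgrounds gave p = 0.005 for each, the smallest it can give. Leaving out any 1 library kept all 3 calls, and so did leaving out both Ikkβca replicate 1 and Stat3KO replicate 3. Without Control replicate 2 the mean effect on Lcn2 was 5.33. Without all 4 libraries with Psca and Aqp5 transcripts the call of Defb3 was lost (adjusted p = 0.130, in a range over all alternatives of 2.37e-04 to 0.130).

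Markers of immune cells moved to different extents with these 3 genes. The 12 neutrophil markers other than S100a8 and S100a9 summed to 2.44 to 12.7 CPM in Ikkβca+Stat3KO, 7.38 to 29.8 in Ikkβca, 3.56 to 13.1 in Stat3KO and 6.22 to 21.5 in Control, and the groups overlapped. Most of this sum was Cxcr2, with group means of 7.14, 17.4, 6.59 and 11.5 CPM in the same order. Csf3r, Mpo, Mmp8 and Mmp9 had group means at or below 0.301 CPM. Of 3 neutrophil markers tested, 2 were called higher in Ikkβca over Control, S100a8 and S100a9. The 14 macrophage and monocyte markers summed to 50.01 to 105 CPM in the combined group, 125 to 156 in Ikkβca, 44.8 to 124 in Stat3KO and 57.5 to 135 in Control. The 12 dendritic and Langerhans cell markers summed to 297 to 680 CPM in the combined group, 659 to 836 in Ikkβca, 220 to 334 in Stat3KO and 227 to 405 in Control. The dendritic sums of Ikkβca libraries lay above those of Control without overlap, while the combined group overlapped Control on every one of these lists. Of 9 dendritic and Langerhans cell markers tested, 2 were called higher in Ikkβca over Control, Itgax and Cd207, and 6 in the mean effect of active IKKβ, with a median log2 fold change of 1.74 and a smallest edgeR adjusted p of 0.00427. Of 13 macrophage and monocyte markers tested, none was called in Ikkβca over Control and 1, Cx3cr1, in the mean effect. Itgax, Cd207 and Cx3cr1 were named after their values were seen. The part of immune cells in the Lcn2, Chi3l1 and Defb3 results was not tested.

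**Figure D2:**
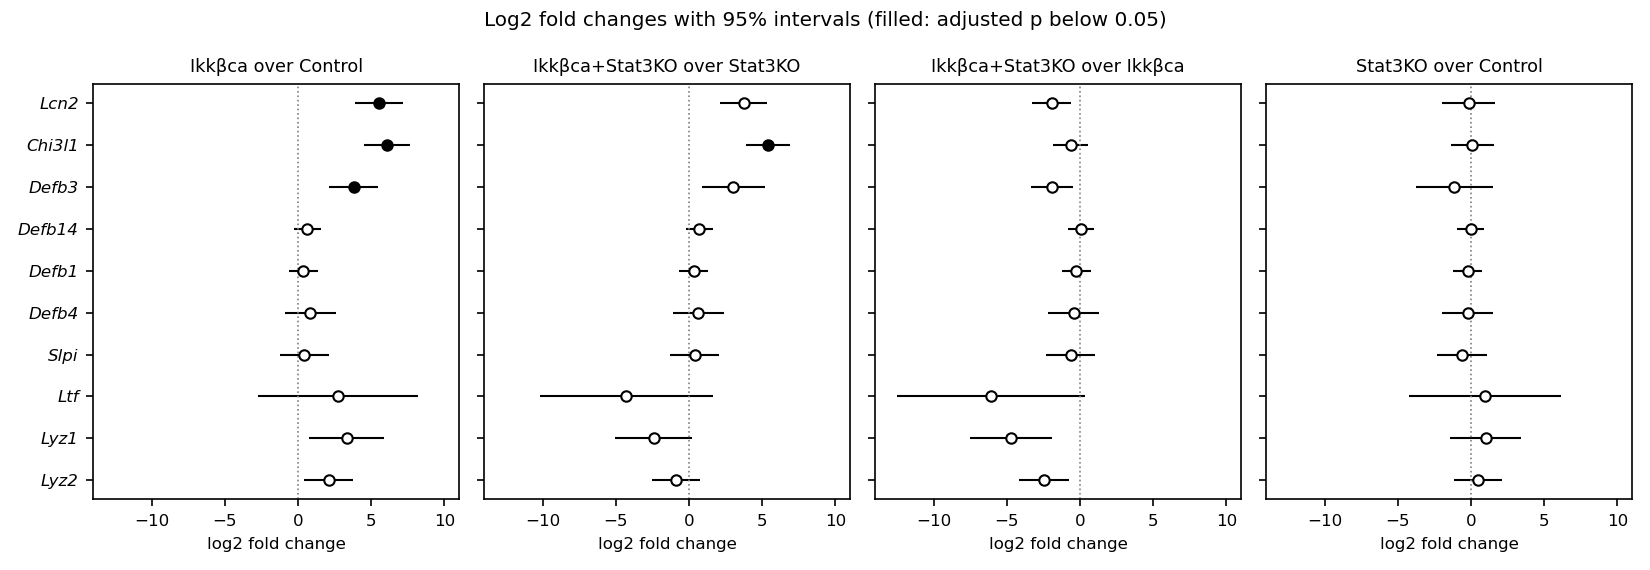
Log2 fold change of each of the 10 genes (points) with its 95% interval (lines) in 4 comparisons, filled where the edgeR adjusted p is below 0.05. Lcn2, Chi3l1 and Defb3 are filled in Ikkβca over Control, Chi3l1 alone in Ikkβca+Stat3KO over Stat3KO, and no point is filled in the other 2 panels, where the intervals of Ltf are the widest.

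Loss of Stat3 on its own moved none of the 10 genes by a detectable amount. In Stat3KO against Control 0 of 10 genes were called, as were 0.0% of all genes, while 7.5% of all genes had an unadjusted p below 0.05 and DESeq2 called 104 genes, with none of the 10 among them, Lyz1 having no adjusted p from it. The log2 fold changes were -0.17 ± 0.81 for Lcn2, 0.08 ± 0.67 for Chi3l1 and -1.14 ± 1.19 for Defb3. The 95% intervals were wide, -1.96 to 1.62 for Lcn2 and -1.40 to 1.56 for Chi3l1, so that a difference of 2-fold in either direction lies within both.

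Whether the rise with active IKKβ differed between Stat3 backgrounds was asked in 2 ways. In the combined group against Ikkβca 0 of 10 genes were called, as were 0.0% of all genes, with 9.88% of genes at an unadjusted p below 0.05 and 131 genes called by DESeq2. The 3 genes that had lower levels in every combined library than in every Ikkβca library were Lcn2, Defb3 and Lyz1, and 7.54% of all genes did the same. The difference was -1.94 ± 0.60 for Lcn2 (95% interval -3.27 to -0.62, edgeR adjusted p = 0.414) and -1.92 ± 0.65 for Defb3 (95% interval -3.35 to -0.49, edgeR adjusted p = 0.445). For Chi3l1 it was -0.63 ± 0.55 (95% interval -1.83 to 0.57, edgeR adjusted p = 0.733), with overlapping libraries. With 3 libraries against 3 the exact permutation p cannot go below 0.1, its value for Lcn2, Defb3 and Lyz1.

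The interaction, the difference between the rise over Stat3KO and the rise over Control, was called for 0 of 10 genes and 0.0% of all genes. It was -1.77 ± 1.01 for Lcn2, -0.71 ± 0.87 for Chi3l1 and -0.78 ± 1.41 for Defb3, each with an edgeR adjusted p of 1.0. In all, 4.66% of genes had an unadjusted p below 0.05 and DESeq2 called 5 genes. Cre differs in the rise over Control and not in the rise over Stat3KO, so its effect cannot be told apart from an interaction. In the combined group against Control 2 of 10 genes were called higher, Lcn2 and Chi3l1, and none lower, where of all genes 0.566% were called higher, 0.318% lower and 0.884% in either direction. Against Stat3KO 1 of 10 was called higher, Chi3l1, and none lower, where of all genes 0.41% were called higher, 0.0495% lower and 0.46% in either direction. Libraries of Lcn2, Chi3l1 and Defb3 lay above all those of Control in the combined group, as did those of 7.2% of all genes, and above all those of Stat3KO, as did those of 6.06%. The comparisons with Control share its 3 libraries.

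The other beta-defensins were far more abundant than Defb3 and did not pass in any comparison. Defb14 (chromosome 8, 19194357 to 19195212, plus strand, mm10), usually compared with human beta-defensin 3, had 41.7, 16.4 and 19 CPM in Ikkβca+Stat3KO libraries, 27.8, 22.2 and 24.1 CPM in Ikkβca libraries, 19.5, 8.43 and 19.3 CPM in Stat3KO libraries, and 19.01, 8.99 and 19.9 CPM in Control libraries. Its Ikkβca libraries lay above all Control libraries, as those of 9.34% of all genes did, and combined libraries overlapped both. The log2 fold change was 0.63 ± 0.42 in Ikkβca over Control (95% interval -0.29 to 1.55) and the mean effect 0.67 ± 0.30 (edgeR adjusted p = 0.309, exact permutation p = 0.06).

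Defb1 (chromosome 8, 21776599 to 21795185, plus strand, mm10), the constitutive epithelial beta-defensin, had 41.3, 34.7 and 43.7 CPM in Ikkβca+Stat3KO libraries, 23.3, 63.7 and 57.9 CPM in Ikkβca libraries, 22.4, 19.7 and 54.3 CPM in Stat3KO libraries, and 35.1, 23.9 and 54.5 CPM in Control libraries. The groups overlapped throughout, and the log2 fold change of Ikkβca over Control was 0.35 ± 0.45 (95% interval -0.64 to 1.34). Defb14, Defb4 and Defb3 lie in 1 cluster on chromosome 8, with 3.49 kb between Defb14 and Defb4 and 91.8 kb between Defb4 and Defb3, yet of these neighbours Defb3 alone was called. Of 20 other beta-defensin genes 1 passed the filter, Defb6, and its log2 fold change was 0.24 ± 0.37 in Ikkβca over Control (edgeR adjusted p = 0.823).

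By group mean per kilobase of exon, Slpi and Defb4 were the most abundant of the 10 genes. In CPM the mean of Ltf in Ikkβca, 726, was above that of Defb4, 605. The levels of Slpi and Defb4 went with the keratin content of a library more visibly than with its genotype. Slpi (chromosome 2, 164354070 to 164389095, minus strand, mm10), the protease inhibitor, had 3384, 572 and 2484 CPM in Ikkβca+Stat3KO libraries, 1017, 5155 and 3945 CPM in Ikkβca libraries, 1081, 1052 and 2789 CPM in Stat3KO libraries, and 1746, 1084 and 4734 CPM in Control libraries. It took between 0.0664% and 0.442% of a library's counts, and high and low libraries occurred in every group. Defb4 (chromosome 8, 19198706 to 19201545, plus strand, mm10) had 717, 121 and 497 CPM in Ikkβca+Stat3KO libraries, 198, 855 and 762 CPM in Ikkβca libraries, 186, 195 and 478 CPM in Stat3KO libraries, and 192, 125 and 695 CPM in Control libraries. The same 6 libraries were highest for both genes: Ikkβca replicates 2 and 3, combined replicates 1 and 3, and replicate 3 of Stat3KO and of Control.

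Neither gene was called in any comparison. In Ikkβca over Control the log2 fold change was 0.42 ± 0.76 for Slpi (95% interval -1.26 to 2.10) and 0.84 ± 0.79 for Defb4 (95% interval -0.89 to 2.57). Over the 12 libraries the log2 level of Slpi correlated with that of Defb4 at r = 0.96, and with the summed level of the suprabasal keratins Krt4 and Krt13 at r = 0.94. For Defb4 and Defb1 the correlation with the keratin sum was 0.95 and 0.78. These 12 points share their library, its depth and its mix of cell layers, so the correlations are descriptions. The highest library was 9.02 times the lowest for Slpi and 2.23 times after division by the keratin sum, and for Defb4 it was 7.09 times and 2.69 times. With the log2 keratin sum as a covariate, an alternative chosen after seeing the data, the standard error in Ikkβca over Control was 0.26 for Slpi and 0.25 for Defb4, and the log2 fold changes were -0.13 for Slpi and 0.45 for Defb4, neither called. Slpi thus changed sign with this setting.

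**Figure D3:**
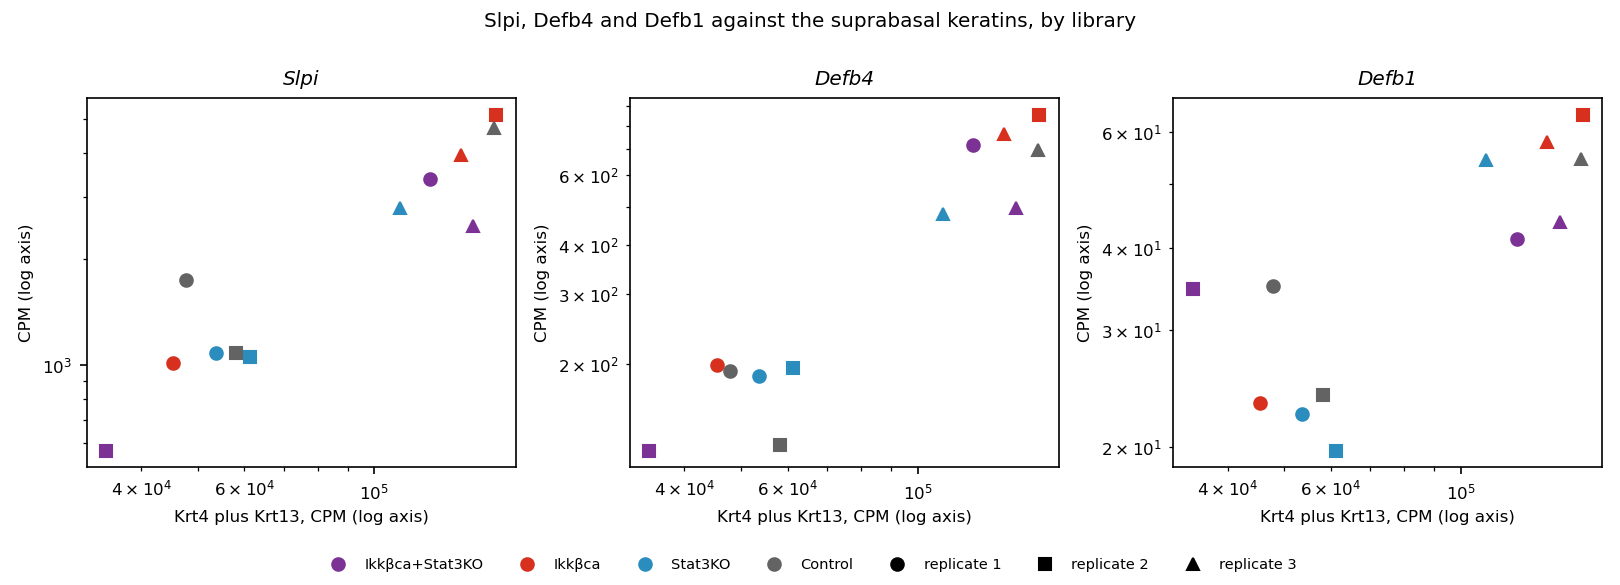
CPM of Slpi, Defb4 and Defb1 against the summed CPM of Krt4 and Krt13 in the 12 libraries, on log axes. Colour marks the group and the symbol the replicate. All 3 genes are higher where the keratin pair is higher, with libraries of every group along the line, and for Slpi and Defb4 the 6 libraries with the most keratin are also the 6 highest.

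Ltf (chromosome 9, 111019271 to 111042767, plus strand, mm10), the iron-binding lactoferrin of milk, saliva and neutrophil granules, varied more than any of the other 9 genes, and within groups. It had 14.7, 13.1 and 4.08 CPM in Ikkβca+Stat3KO libraries, 1970, 209 and 0.731 CPM in Ikkβca libraries, 17.8, 4.13 and 607 CPM in Stat3KO libraries, and 1.45, 320 and 4.65 CPM in Control libraries. The 4 highest libraries were those with Psca and Aqp5 transcripts, in the same order as the gastric list, and the other 8 were at or below 17.8 CPM. The log2 fold change of Ikkβca over Control was 2.74 ± 2.45, with a 95% interval of -2.72 to 8.20. Without Ikkβca replicate 1 and Stat3KO replicate 3 it was -0.05 ± 2.01, and without all 4 libraries, an alternative chosen after seeing the data, -2.06 ± 1.26. Over 12 libraries r with the summed gastric list and with the salivary and serous list was 0.95 in both cases. Ltf was not called in any comparison, and 3 of the 4 genotypes held libraries both above 200 and below 20 CPM.

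The lysozymes peaked in the same Ikkβca library. Lyz2 (chromosome 10, 117277331 to 117282321, minus strand, mm10), the lysozyme of myeloid cells, had 11.6, 21.4 and 26.8 CPM in Ikkβca+Stat3KO libraries, 269, 26.5 and 40.1 CPM in Ikkβca libraries, 30.8, 49.9 and 31.2 CPM in Stat3KO libraries, and 13.6, 42.5 and 22.9 CPM in Control libraries. Lyz1 (chromosome 10, 117287797 to 117292868, minus strand, mm10) had 0.400, 0.697 and 1.41 CPM in Ikkβca+Stat3KO libraries, 61.8, 2.18 and 3.01 CPM in Ikkβca libraries, 2.93, 5.84 and 4.75 CPM in Stat3KO libraries, and 0.895, 4.39 and 1.45 CPM in Control libraries. Ikkβca replicate 1 stood far above all other libraries for both genes, and every combined library was below every Stat3KO library for both, as were those of 6.87% of all genes. In the combined group over Stat3KO the log2 fold change was -2.42 ± 1.20 for Lyz1 (edgeR adjusted p = 0.604) and -0.90 ± 0.75 for Lyz2 (edgeR adjusted p = 0.828).

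Ikkβca over Control gave 3.32 ± 1.16 for Lyz1 (edgeR adjusted p = 0.267) and 2.08 ± 0.77 for Lyz2 (edgeR adjusted p = 0.294). Without Ikkβca replicate 1 these were 0.21 ± 0.66 and 0.34 ± 0.47. The combined group over Ikkβca gave -4.73 ± 1.27 for Lyz1 with that library and -1.63 ± 0.68 without it. The interaction of Lyz1, -5.74 ± 1.66 (edgeR adjusted p = 1.0), was -2.63 ± 0.91 without it. The 2 genes are neighbours, 5.48 kb apart, and near copies: their main transcripts are identical over 96.0% of 1262 aligned bases with a longest shared run of 118 bases, so reads may have been placed on the wrong one. Lyz1 took 18.7% of the counts of the pair in Ikkβca replicate 1 (exact 95% binomial interval 17.8 to 19.6) and 3.15% to 13.2% elsewhere. The part of misplaced reads in these levels was not tested.

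**Figure D4:**
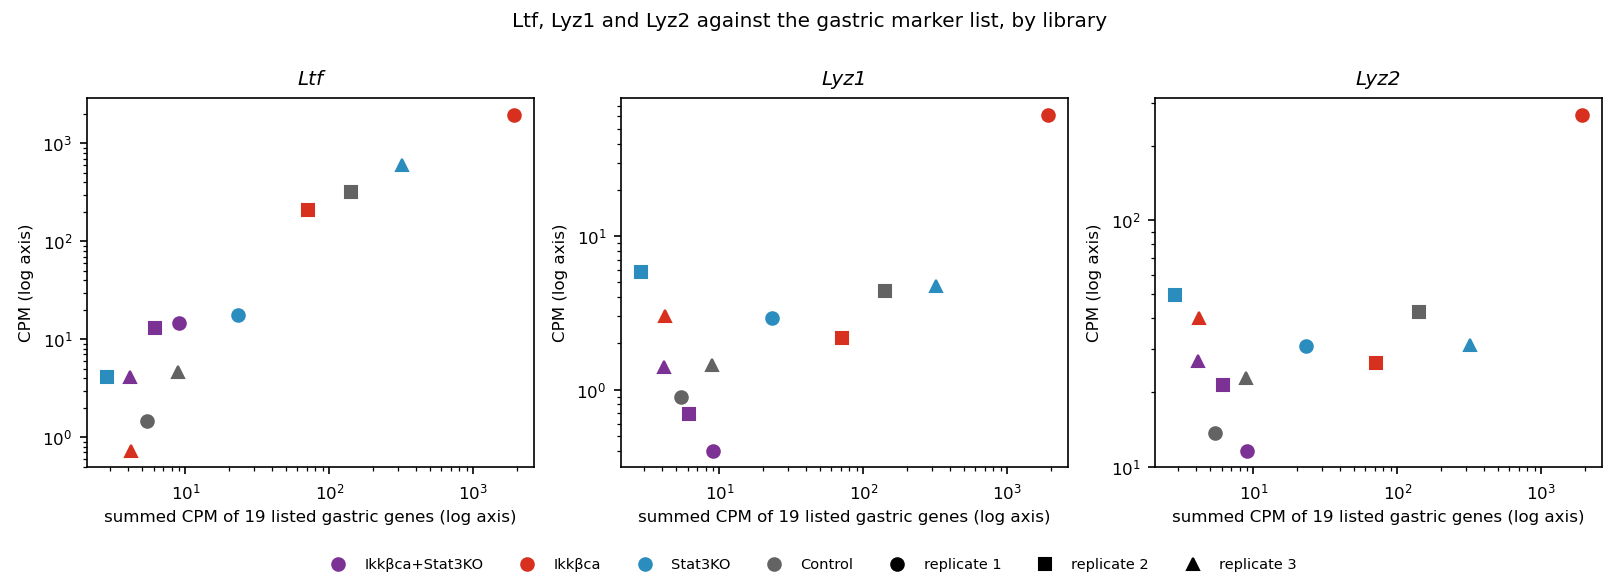
CPM of Ltf, Lyz1 and Lyz2 against the summed CPM of the 19 listed gastric genes in the 12 libraries, on log axes. Colour marks the group and the symbol the replicate. Ltf climbs with the sum over the 4 libraries above 50 CPM, to 1970 CPM in Ikkβca replicate 1, whereas Lyz1 and Lyz2 stand out in that library alone.

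Transcripts of Defb3 and Defb4 are identical over 77.6% of 272 aligned bases, with a longest shared run of 33 bases. Defb3 had 0.316 to 2.41 counts per 1000 Defb4 counts in Ikkβca+Stat3KO libraries, 1.19 to 4.29 in Ikkβca libraries, 0 to 0.242 in Stat3KO libraries and 0 to 0.583 in Control libraries. By this ratio Ikkβca libraries were above all Stat3KO and Control libraries, and the combined group overlapped Control. The part of misplaced reads in the Defb3 result was not tested.

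Per kilobase of exon the 10 genes span a wide range of levels, in the same order at the top in every group. Mean RPKM (CPM per kilobase of merged exons) of Slpi was 1819 in Ikkβca+Stat3KO, 2858 in Ikkβca, 1390 in Stat3KO and 2137 in Control, the highest of the 10 genes in each. Defb4 was next, at 980, 1332, 631 and 742 RPKM in the same groups. Chi3l1 had 27.7 ± 20.4 RPKM (SD, n = 3) in the combined group and 42.8 ± 20.6 in Ikkβca, against 0.671 ± 0.257 in Stat3KO and 0.614 ± 0.369 in Control. Lcn2 and Defb3 stayed near the bottom even where they had risen, at 6.64 ± 1.40 and 4.19 ± 1.41 RPKM in Ikkβca. The exon length of Lcn2 differs between its transcripts, so its RPKM value depends on the choice of length.

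Other genes of the same defences gave a frame for the 3 rises. Of 46 further antimicrobial genes 23 were tested, and 3 were called higher and none lower in Ikkβca over Control. S100a8 and S100a9, the calprotectin subunits that chelate zinc and manganese, rose by 6.78 ± 0.63 and 3.61 ± 0.66 on the log2 scale, and Lpo, lactoperoxidase, by 3.58 ± 0.68. The S100a9 call was lost on leaving out any 1 of the Control libraries or Ikkβca replicate 2 or 3 (edgeR adjusted p between 0.0568 and 0.182). Lpo had 25.1 CPM in Ikkβca replicate 1 and 4.21 and 4.64 CPM in the other Ikkβca libraries, against 0.836 to 1.03 CPM in Control libraries. Without Ikkβca replicate 1 its log2 fold change was 2.23 and still called, and it was lost without any 1 of the Control libraries (edgeR adjusted p between 0.0878 and 0.176). S100a8 was also called in the combined group, over Control by 4.22 ± 0.58 and over Stat3KO by 3.46 ± 0.55. The first was lost without Control replicate 2 (edgeR adjusted p = 0.0543) and the second without any 1 of the Stat3KO libraries (edgeR adjusted p between 0.109 and 0.155), and without combined replicate 3 they were 3.28 and 2.53. S100a8 and S100a9 are also neutrophil markers, and keratinocytes make both. Lpo is also on the list of 12 salivary and serous gland genes that stood out in the libraries with Psca and Aqp5 transcripts.

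Of 9 other chitinase family genes 5 were tested. Chi3l4, a rodent chitinase-like gene, was called in the mean effect of active IKKβ, at 2.97 ± 0.54 (edgeR adjusted p = 0.0157), and lost its call without Control replicate 1 (adjusted p = 0.0527). None of the 15 tested receptors and partners of these proteins was called in any comparison, and the smallest adjusted p values in Ikkβca over Control belonged to Tmem219, which binds a receptor of Chi3l1, at -0.35 ± 0.14 and Anxa2, annexin A2, at -0.39 ± 0.17. Of 16 tested IL-17 and IL-22 pathway genes 2 were called higher in Ikkβca over Control: Il23a, the p19 subunit of IL-23, by 4.54 ± 0.52 and Zc3h12a, the RNase Regnase-1, by 1.81 ± 0.16. Il23a rose by 4.84 ± 0.52 in the combined group over Control and 4.41 ± 0.50 over Stat3KO, the second being 5.06 without Stat3KO replicate 1. Nfkbiz, IκBζ, was called in the mean effect at 1.09 ± 0.25 (edgeR adjusted p = 0.0409), a call lost on leaving out any 1 library other than Stat3KO replicate 1 (adjusted p between 0.0511 and 0.0975). Of 9 NF-κB and STAT3 readouts, 4 were called higher in Ikkβca over Control (Nfkbia, Nfkb2, Relb and Birc3), 5 in the combined group over Control (these and Tnfaip3), 4 in the combined group over Stat3KO (Nfkbia, Nfkb2, Relb and Tnfaip3) and 6 in the mean effect (all 5 and Ikbkb), none lower, and Bcl3, Stat3 and Socs3 in no comparison. Nfkbia, the IκBα gene that NF-κB itself induces, rose by 1.11 ± 0.17 in Ikkβca over Control, with the call lost without Control replicate 1 (edgeR adjusted p = 0.0596) or Ikkβca replicate 3 (edgeR adjusted p = 0.0566), and Socs3, which STAT3 induces, was at -0.04 ± 0.30.

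Genes whose log2 levels over the 12 libraries were most like those of the 3 called genes were named by their correlation, as a description. Closest to Lcn2 were Slfn2 (r = 0.98), H2-DMb2 (r = 0.97) and Lgi2 (r = 0.96). Closest to Chi3l1 were Galnt6, Lrrc32 and Tnip3, each at r = 0.98 or above, and closest to Defb3 were Apol7c (r = 0.94), Krt84 (r = 0.93) and Sprr2d (r = 0.93). Among the 10 genes themselves Lcn2 and Chi3l1 correlated at 0.93, Lcn2 and Defb3 at 0.84, and Lyz1 and Lyz2 at 0.97. Named in the same way after their values were seen, the genes closest to Ltf were Cldn3 (r = 0.98), Muc4 (r = 0.96) and Muc20 (r = 0.96), and those closest to Slpi were Tmem40, Asprv1 and Crct1, each at r = 0.99.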

How the data were processed

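Per the labels' protocols, polyA RNA of separated epithelium was sequenced. Per the submitters' processing notes, the tools named were cutadapt 1.13, STAR, HTSeq 0.6.1p1 and DESeq2 with the mm10 build. The deposited files hold read counts per gene, unscaled, for 23337 symbols, and library strand is not given in the sources used here. Totals ran between 14816468 and 30188363 counts per library, and intervals on counts cover counting error only.

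The counts were fitted with edgeR 4.0.16 (limma 3.58.1, R 4.3.3): filterByExpr, TMM scaling and 1 robust quasi-likelihood model of all 12 libraries with 4 groups, giving 7 comparisons adjusted by Benjamini-Hochberg over 14134 genes at 0.05. Standard errors are those of log2 fold changes, log2 levels used a prior count of 2, and the pipeline was tested on simulated data. DESeq2 1.42.0 was an alternative, as were other scalings, filters and designs, and 2 alternatives chosen after seeing the data: the log2 Krt4 plus Krt13 level as a covariate, and leaving out the 4 libraries above 50 CPM of the gastric list. A gene's libraries did not overlap when all of 1 group lay above all of the other. Single values were tested by exact permutation. Positions and exon lengths are from GENCODE M21, promoters from RefSeq.

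The 10 genes and all lists were chosen with earlier results of these data known. Of the lists of other antimicrobial proteins, other beta-defensins, chitinase family genes, receptors and partners, and IL-17 and IL-22 genes, those called in at least 1 comparison were named, or else the 2 with the smallest adjusted p in Ikkβca against Control. Values were also given for the NF-κB and STAT3 readouts Nfkbia, Stat3, Ikbkb and Socs3, and the 3 genes most correlated with each called member.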

Additional observations from a re-analysis of the deposited data

How the results depend on the processing

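Of the 1277 alternative fold changes counted, which leave out some genes and comparisons, 37 changed sign, and none of these had been called. Counts of genes called, by edgeR against the alternatives, were 135 in Ikkβca over Control, 125 in Ikkβca+Stat3KO over Control, 65 in Ikkβca+Stat3KO over Stat3KO and 384 in the mean effect. In that order they were 419, 451, 292 and 845 with DESeq2, which also called 104 in Stat3KO over Control, 131 in Ikkβca+Stat3KO over Ikkβca and 5 in the interaction, 66, 53, 29 and 217 with library totals, and 403, 444, 222 and 870 with the keratin covariate, which called 30 in Ikkβca+Stat3KO over Ikkβca. Fitting only the groups compared gave 61, 14 and 16 for the first 3, and could not be done for the interaction and the mean effect, which use all groups. Without both Ikkβca replicate 1 and Stat3KO replicate 3 Ikkβca over Control gave 83 and Ikkβca+Stat3KO over Stat3KO 28. Without the 4 libraries with Psca and Aqp5 transcripts, which leaves 1 Ikkβca library, assumed to vary like the other groups, they were 1, 7, 5 and 59. Leaving out 1 library gave 42 to 102, 43 to 147, 20 to 81 and 184 to 444, 0 to 1 in Stat3KO over Control and 0 to 1 in Ikkβca+Stat3KO over Ikkβca.

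Of the 10 genes, 3 were called in Ikkβca over Control. This became 2 with library totals, the replicate block, only the groups compared or either change to the filtering of low counts. It was 2 as well without both Ikkβca replicate 1 and Stat3KO replicate 3. It was also 2 on leaving out any 1 library, with Defb3 lost each time. Lcn2 and Chi3l1 were each called in 17 of 18 alternatives, and Defb3 in 5 of 17. Leaving out the 4 libraries leaves 1 Ikkβca library, which cannot show the spread of that group. In Ikkβca+Stat3KO over Control, 2 became 1 with library totals or without both libraries, 0 with only the groups compared or without the 4 libraries, and 1 to 2 leaving out 1 library. In Ikkβca+Stat3KO over Stat3KO, 1 became 2 with DESeq2, the keratin covariate or the replicate block, 0 with only the groups compared or without the 4 libraries, and 0 to 2 leaving out 1 library. The cause was not tested.

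Among the fold changes counted, signs changed as follows on the log2 scale. In Stat3KO over Control, Defb14 was 0.044 with library totals and 0.0021 with the keratin covariate, Defb4 0.089 with the covariate, Chi3l1 -0.23 without both libraries and -0.20 without the 4, Ltf -3.29 without both, and Lcn2 0.93 without the 4. In Ikkβca over Control, Slpi was -0.13 and Socs3 0.10 with the covariate, Ltf -0.054 without both libraries, and Ltf -2.06, Defb6 -0.14 and Socs3 0.034 without the 4. Slpi was -0.098 in Ikkβca+Stat3KO over Stat3KO with the covariate, and Ltf 3.83 in Ikkβca+Stat3KO over Ikkβca without the 4. Leaving out 1 library, Stat3KO over Control ranged from -0.30 to 0.57 for Chi3l1, -0.30 to 0.28 for Defb14, -0.85 to 0.12 for Defb1, -0.84 to 0.85 for Defb4, -0.65 to 1.25 for Lcn2, -3.29 to 6.08 for Ltf and -1.25 to 0.21 for Slpi. Ikkβca over Control ranged from -0.055 to 7.87 for Ltf, -0.059 to 1.25 for Slpi, -0.043 to 0.43 for Defb6 and -0.19 to 0.14 for Socs3. Ikkβca+Stat3KO over Ikkβca ranged from -0.46 to 0.30 for Defb14 and -0.96 to 0.0050 for Defb4, and over Stat3KO Slpi ranged from -0.094 to 0.999. Fold changes outside that count also changed sign over all alternatives, for example those below. In Ikkβca+Stat3KO over Control, Ltf ranged from -3.93 to 1.77, Slpi from -0.73 to 0.60 and Defb4 from -0.14 to 1.49. In the mean effect, Ltf ranged from -2.18 to 1.78, Lyz1 from -1.10 to 0.90, Lyz2 from -0.35 to 0.85 and Slpi from -0.11 to 0.93. None of these was called.

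Replicate numbers are shared between groups, and the labels name no shared animal, litter or day. Deviations correlated above 0.1 in 9 of 18 same-numbered pairs (median 0.105) and 12 of 36 differently numbered pairs (median -0.064), and 8 of 12 libraries correlated best with their own number. The number also goes with sex, replicate 1 being female in every group, so the block takes up sex too. With the replicate block Lcn2 in Ikkβca+Stat3KO over Stat3KO was called, Defb3 in Ikkβca over Control was not, and Defb14 in Ikkβca+Stat3KO over Ikkβca was -0.053.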
